A study of Mus musculus with 24 samples.

Results

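The imprinted genes of mouse embryonic fibroblasts (MEFs) were followed through cells that lack some or all of the 6 enzymes that methylate lysine 9 of histone H3 (H3K9). A list of 42 mouse imprinted genes was matched by symbol to the gene rows of the deposited count table, which has 47937 of them. All 42 were found, in 18 imprinted domains. Of these, 21 are listed as expressed from the maternal allele and 19 from the paternal allele. For the other 2, *Gnas* and *Inpp5f*, the expressed allele depends on the promoter. These classes are not specific to MEFs, and whether each gene is imprinted in these cells was not measured. A low-count filter over all genes left 33 of the 42 for testing, among 18565 tested genes. The members were chosen by name.

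RNA was sequenced from 24 cultures, 3 for each of 8 conditions. WT cells are the *E1c* line, MEFs with a conditional *Eset1* (*Setdb1*) allele and a Cre recombinase that 4-hydroxytamoxifen (4-OHT) activates, left without 4-OHT. *E1* is the same line after 4-OHT, which removes floxed exons of *Eset1*. *E2* is an *Eset2* (*Setdb2*) mutant clone without 4-OHT, and *E1E2* is that clone after 4-OHT. *E1 S1S2* is a clone with both *Suv39h* genes disrupted, after 4-OHT removed *Eset1*. *6KO1* was made from that clone before 4-OHT, by also disrupting *Eset2*, *G9a* (*Ehmt2*) and *Glp* (*Ehmt1*), and was then given 4-OHT. *E1E2 G9Gl* was made from the *Eset2* clone before 4-OHT, by also disrupting *G9a* and *Glp*, and was then given 4-OHT to remove *Eset1*. *6KO2* was made from the *E1E2 G9Gl* clone before 4-OHT, by disrupting both *Suv39h* genes, and was then given 4-OHT. *E2*, *E1E2*, *E1E2 G9Gl* and *6KO2* descend from 1 *Eset2* mutant clone and are not independent of each other, and neither are *E1 S1S2* and *6KO1*. All mutant lines but *E2* were thus treated with 4-OHT, and WT was not. Against WT, the treatment and the loss of *Eset1* therefore cannot be told apart. All of the mutant lines descend from the *E1c* cells, and the inducible Cre was put back into the cells under puromycin. The mutations other than *Eset1* were made by CRISPR/Cas9 and each line is 1 clone, so clone and genotype cannot be told apart. The treatment field names 4-OHT for every sample, and the sample titles, in which WT and *E2* are the controls, were followed instead.

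Imprinted genes are expressed mainly from 1 parental copy. The copy is set by DNA methylation laid down in the egg or sperm at an imprinting control region, and that region acts over a domain that can hold several genes and a long non-coding RNA. In the early embryo the zinc finger protein ZFP57 binds methylated control regions and recruits TRIM28, which brings in SETDB1, and G9a and GLP are known for the repression of some imprinted genes in the placenta. The counts sum both alleles, so parental origin was not measured, and in bulk RNA fewer cells with a transcript and less RNA per cell cannot be told apart.

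Each library held 24736829 to 37419071 counts, of which 19541909 to 31489070 were on genes. WT replicate 2 stood apart: its chi-square per gene was 68.4 and 57.2 against the other WT libraries, which differed from each other by 5.05, and pairs of libraries in the mutant lines gave 2.25 to 25.2. Of the 63 calls below that use WT libraries, 58 were kept without WT replicate 2, 5 were lost and 2 were gained, and the affected genes are given with both values. RNA of the targeted genes was a weak check of the labels, since frameshifts and removed exons leave a transcript: *Setdb1* fell by 0.57 on the log2 scale in *E1* and changed by 0.0072 between *E2* and *E1E2*, *Setdb2* fell by 1.36 in *E2*, and *Suv39h2* was 0.76 higher in *E1 S1S2* than in WT. Fibroblast genes such as *Col1a1* and *Vim* were abundant in every library, with 10745 or more and 34179 or more normalized counts. Among 10 fibroblast markers the summed level was 172248 to 215884 in WT, 96944 to 108774 in *6KO1*, 224412 to 242149 in *E1E2 G9Gl* and 141486 to 181282 in the other 5 lines. The most abundant genes make up nearly all of this sum, and single markers moved further. The surface marker *Thy1* had a mean of 199.1 in WT and 186.1 in *E1*. It was close to 0 in 3 lines (*6KO1* 0.293, *E1 S1S2* 0.861, *6KO2* 1.76), at 27.0 in *E2* and 49.3 in *E1E2*, and at 411.8 in *E1E2 G9Gl*. *Pdgfra* had a mean of 128.9 in WT, 3.12 in *6KO1* and 13.7 in *E1E2 G9Gl*. *Postn* had 872.9 in WT, 23.8 in *6KO1* and 64.6 in *E2*, and *Col1a2* 46816 in WT and 8339 in *E1 S1S2*. In *E1E2 G9Gl*, *Col3a1* and *S100a4* were higher, with 48619 and 9533 against 18076 and 2752 in WT.

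Marker lists of other cell types, as normalized counts summed over each list, also differed between conditions. The 4 epithelial markers had 30.9 to 50.2 in WT and 97.2 to 445.9 in the mutant lines, mostly *Krt8*, with a mean of 24.9 in WT and 422.7 in *6KO1*. The 3 haematopoietic markers had 92.2 to 108.7 in WT and 485.1 to 552.7 in *6KO1*, mostly *Cd68*. Their defining marker *Ptprc* was at 0 in WT and reached a mean of 47.7 in *E1E2 G9Gl*, with 18.8 for *6KO2* and 15.7 for *6KO1*. The 3 endothelial markers had 11.04 to 14.9 in WT, 96.2 to 129.2 in *6KO2*, 94.9 to 109.9 in *6KO1* and 66.1 to 79.8 for *E1E2 G9Gl*, with *Cdh5* at 1.37, 46.7, 63.1 and 34.7 in that order. The 3 neuronal markers had 675.6 to 826.4 in WT, 500.3 to 590.1 in *6KO1* and 984.5 to 3619 in the other lines, nearly all of it *Tubb3*, and *Snap25* and *Rbfox3* were at 0 in WT. The 3 skeletal muscle markers had 23.4 to 28.3 in WT, with *Myod1* and *Myog* at 0, and 8.07 to 45.3 in the mutant lines. The 4 pluripotent or germ cell markers had 9.13 to 18.1 in WT, with *Dppa3* at 0, and 5.95 to 22.9 in the mutant lines. The part of these markers in the changes of imprinted genes was not tested.

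In WT cells the 42 genes covered a wide range of levels. On a scale of counts per kilobase of exon and per library depth (RPKM, computed here from normalized gene counts), the tetraspanin gene *Cd81* had the highest level, 59.5 ± 4.41 (SD, n = 3). *Igf2r*, which encodes the receptor that sends insulin-like growth factor 2 to lysosomes, and *Slc38a4*, an amino acid transporter gene, followed at 51.0 ± 9.39 and 51.0 ± 11.3, within their spread of *Cd81*. The growth inhibitor gene *Grb10* stood at 30.2 ± 0.867, the retrotransposon-derived gene *Peg10* at 20.1 ± 3.35, and the cell cycle inhibitor gene *Cdkn1c* at 13.04 ± 0.365. The *H19* long non-coding RNA had 3.89 ± 0.245, the Notch-related transmembrane protein gene *Dlk1* 2.77 ± 0.262, and the fetal growth factor gene *Igf2* 1.66 ± 0.195. *Mest*, *Magel2*, *Meg3* and *Zim1* had 0 counts in WT, which allows up to 0.99 normalized counts (3 counts over the 3 WT libraries). These limits, and the counting intervals below, cover counting error only.

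**Figure D1:**
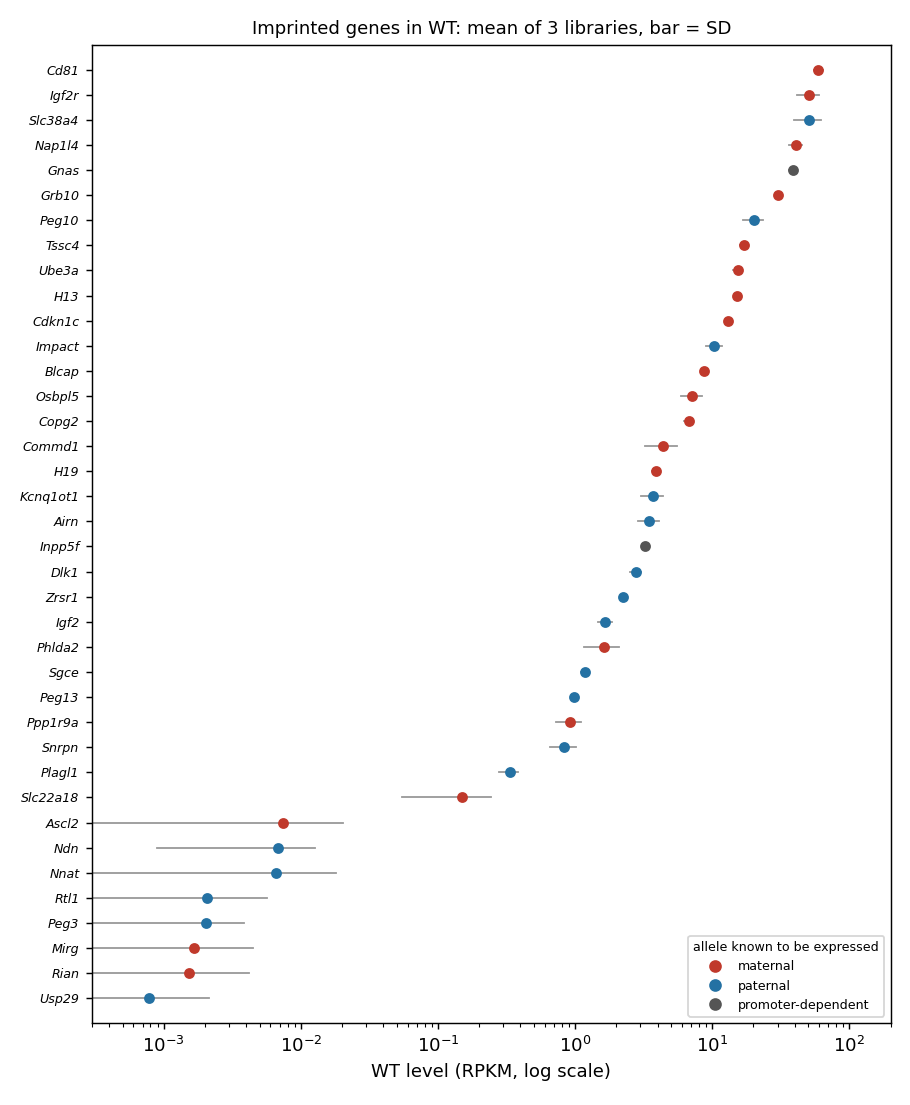
Level of imprinted genes in WT cells, in RPKM (counts per kilobase of exon, scaled to library depth) on a log axis. Points are means of 3 libraries, bars are SD, and colours give the allele known to be expressed; the 4 genes at 0 counts are left out, and *Cd81* has the highest level at 59.5.

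The 9 genes that did not pass the filter were *Usp29*, *Zim1*, *Rtl1*, *Meg3*, *Mirg*, *Slc22a18*, *Ascl2*, *Magel2* and *Nnat*. *Magel2*, a ubiquitin ligase regulator gene, had 0 counts in all 24 libraries, which allows a mean of up to 0.12 normalized counts. *Meg3*, the long non-coding RNA of the *Dlk1* domain, had 4 counts over all libraries, and the neuronal gene *Nnat* had 18, with at most 3 in a library. The organic cation transporter gene *Slc22a18* had the most, 100 counts over all libraries. No change of these genes was tested, and a low level is not shown to be absence.

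Of the 33 tested genes, 19 passed the test (adjusted p of at most 0.01 and a change of at least 2-fold) in at least 1 of the 7 lines against WT, 11 of them in 3 or more lines. In *6KO1*, 5 rose and 6 fell, beside 20.6% of all tested genes that rose and 10.2% that fell. In *6KO2*, 4 rose and 9 fell, beside 15.3% and 5.39%. In *E1E2 G9Gl*, 4 rose and 6 fell, beside 16.8% and 8.41%. *Peg3*, *Rian*, *Ndn* and *Mest* passed the filter only through the conditions where they are high and had to differ, so that these counts describe the tested genes and not the list. The median change of the 33 genes was -0.04 in *6KO1* and -0.14 in *6KO2* on the log2 scale, against 0.0615 and 0.0407 over all tested genes, so gains and losses lay on both sides.

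The lines with fewer mutations also had more imprinted genes that fell than rose. In *E1*, 3 rose and 4 fell, beside 2.27% and 1.99% of all tested genes. In *E1 S1S2*, 0 rose and 7 fell, beside 6.65% and 5.11%, and for the count of 0 in the edgeR test 6 genes were higher at an unadjusted p under 0.05 and DESeq2 also called 0. In *E2*, 1 rose and 5 fell, beside 2.9% and 3.21%. In *E1E2*, 1 rose and 5 fell, beside 5.51% and 3.22%. The shares that fell were above the background in all 7 lines. The 7 comparisons share the WT libraries, and lines that descend from the same clone are not independent.

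By parental allele, 3 of the 16 tested maternally expressed genes rose in *6KO1* and 4 fell, while 2 of the 15 paternally expressed genes rose and 2 fell, beside the 20.6% and 10.2% of all tested genes. In *6KO2*, 0 maternally expressed genes rose and 5 fell, while 4 paternally expressed genes rose and 4 fell, beside 15.3% and 5.39%. *E1E2 G9Gl* had 0 and 3 among the maternally expressed genes and 4 and 3 among the paternally expressed ones, beside 16.8% and 8.41%. The classes are those of the list and were not measured in MEFs. Some genes that rose had passed the filter only through lines where they are high, and so had to differ. These were *Peg3* and *Rian* in *6KO1*, *Ndn* and *Peg3* in *6KO2*, and *Ndn* and *Mest* in *E1E2 G9Gl*. The counts by class therefore cannot be set against the background, and the difference between the allele classes was not tested.

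**Figure D2:**
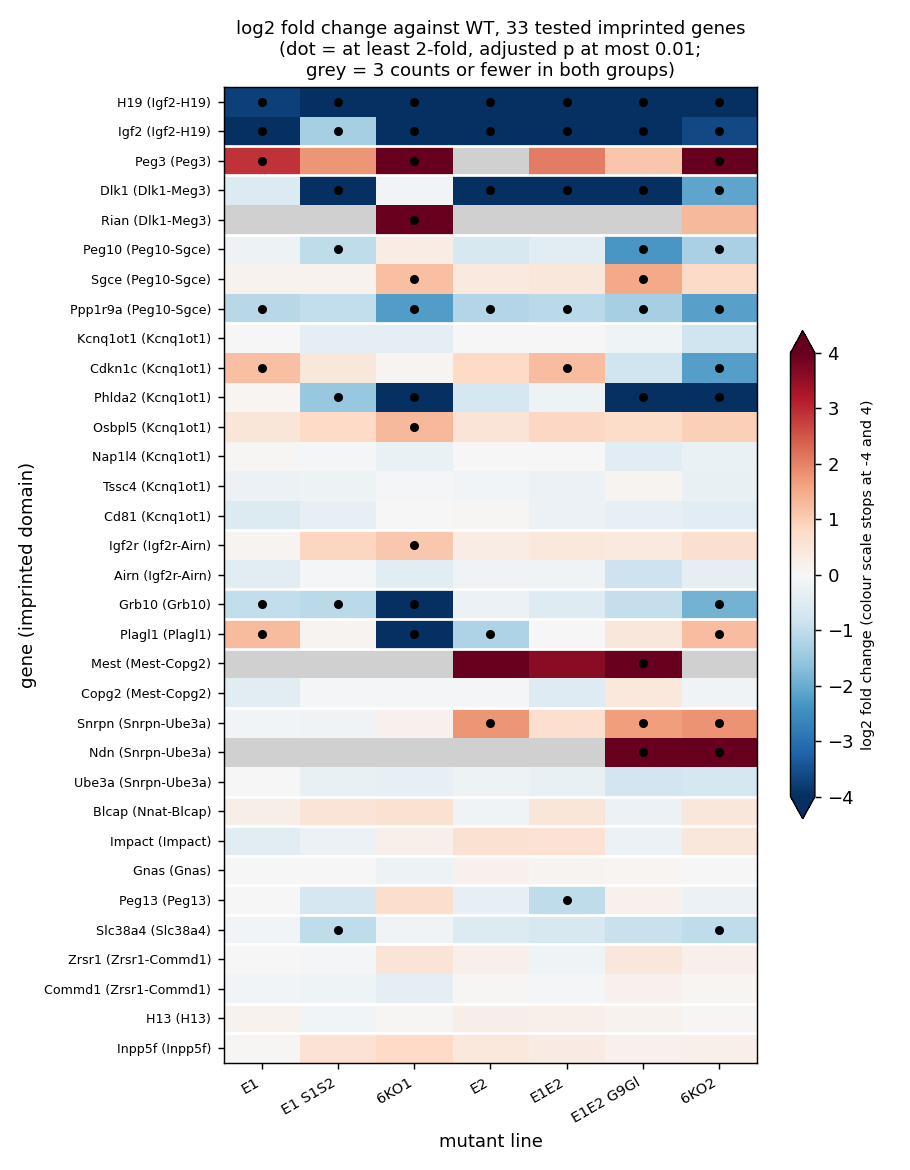
Log2 fold change against WT (colour) of the 33 tested imprinted genes (rows, with their domain) in 7 mutant lines (columns); a dot marks a change that passed the test, and grey marks cells with 3 counts or fewer in both groups. *H19* and *Igf2* fell in all 7 lines, while the fitted values of genes close to 0 counts in WT (*Peg3*, *Rian*, *Mest* and *Ndn*) depend on the prior count of the fit.

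The *Igf2*-H19 domain lies on chromosome 7 (GRCm38, 142575529 to 142666816). *Igf2* is expressed from the paternal copy and *H19* from the maternal copy, with a shared control region upstream of *H19*. Both RNAs fell in all 7 lines. *H19* had 233.4, 233.8 and 259.9 normalized counts in the WT libraries and 19.5, 12.8 and 22.0 in *E1*. The *E1 S1S2* libraries had 5.48, 7.25 and 5.40, and the *6KO1* libraries had 0 counts each. All mutant libraries lay under all WT libraries, and *6KO1* was at least 267-fold lower than WT.

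*H19* was already low in *E2* cells without 4-OHT, with 2.38, 5.38 and 1.19 normalized counts. The *E1E2* libraries had 1.97, 3.32 and 3.10. The *E1E2 G9Gl* libraries had 0, 1.16 and 1.29, and the *6KO2* libraries 12.41, 8.002 and 8.837. The fall against WT was -3.72 ± 0.18 (SE) on the log2 scale in *E1* (adjusted p = 1.5e-12), -6.19 ± 0.25 in *E2* and -4.61 ± 0.21 in *6KO2*. With 2 counts over its 3 libraries, *E1E2 G9Gl* was 311-fold under WT (95% counting interval 85.7 to 2569). The *6KO2* cells had more *H19* than *E1E2 G9Gl*, the line before it in the series (27 counts against 2, 12.6-fold, counting interval 3.17 to 109).

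*Igf2* had 228.0, 221.0 and 273.0 normalized counts in WT and 10.7, 10.9 and 10.6 in *E1*. In *E1 S1S2* it was higher again, with 109.6, 77.9 and 96.2, between the *E1* and the WT libraries without overlap. The *6KO1* libraries had 7.91, 3.48 and 7.82. The change against WT was -4.47 ± 0.23 for *E1*, -1.34 ± 0.17 for *E1 S1S2* and -5.22 ± 0.25 for *6KO1*. Thus, *H19* fell further from *E1* to *E1 S1S2* (-1.58 ± 0.31, adjusted p = 2.6e-04) while *Igf2* rose (3.13 ± 0.25, adjusted p = 7.2e-10).

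In the second series of clones *Igf2* stayed low. *E2* had 2.38, 7.17 and 2.38 normalized counts, and *E1E2* had 8.87, 6.64 and 3.10. *E1E2 G9Gl* had 8.63, 13.9 and 15.5, and *6KO2* had 24.8, 13.7 and 19.9. None of these libraries reached the WT values, and the change in *6KO2* was -3.61 ± 0.22. Of the *Igf2* exon bases, 62.8% are shared with the same-strand gene model *Gm49394*, which is not a row of the table, and reads there cannot be assigned to 1 model with certainty.

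Of the 20 other tested genes within 1 Mb of this domain, 3 were higher and 5 lower in *6KO1* and also in *6KO2*. Their median change was -0.15 and 0.17. In *E1*, 0 were higher and 6 lower, beside 2.27% and 1.99% of all tested genes. The counts were 0 and 5 in *E1 S1S2* (beside 6.65% and 5.11%) and 0 and 5 in *E2* (2.9% and 3.21%). They were 1 and 6 in *E1E2* (5.51% and 3.22%) and 3 and 3 in *E1E2 G9Gl* (16.8% and 8.41%). The part of these neighbours in the fall of *H19* and *Igf2* was not tested. The receptor and clearance gene *Igf2r*, whose product removes IGF2, rose in *6KO1* by 1.07 ± 0.089, and by 0.92 without WT replicate 2, which is under the 2-fold minimum.

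The *Dlk1*-Meg3 domain on chromosome 12 (109452823 to 109749460) holds the paternally expressed *Dlk1* and *Rtl1* and the maternally expressed non-coding RNAs *Meg3*, *Rian* and *Mirg*. *Dlk1* fell in 5 of the 7 lines. It had 433.7, 358.9 and 399.4 normalized counts in WT, and 295.0, 259.6 and 252.3 in *E1*. The *E1 S1S2* libraries had 23.48, 19.02 and 32.38, and the *6KO1* libraries 420.3, 351.6 and 328.6. The *6KO1* libraries overlapped WT, with a change of -0.11 that did not pass the test, although *E1 S1S2*, the line before it in the series, lay far lower (3.87 ± 0.22 between them, adjusted p = 3.2e-13).

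*Dlk1* was low in the second series up to *E1E2 G9Gl*. *E2* had 2.38, 6.28 and 3.56 normalized counts. *E1E2* had 9.86, 1.11 and 9.30, *E1E2 G9Gl* had 3.24, 0 and 1.29, and *6KO2* had 99.3, 107.5 and 70.7. The *6KO2* libraries lay between those of *E1E2 G9Gl* and WT, with a rise of 5.78 ± 0.45 from *E1E2 G9Gl* (adjusted p = 1.8e-10) and a change of -2.10 ± 0.19 against WT. In both series the line with all 6 mutations had more *Dlk1* than the line before it.

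*Rian*, a host of small nucleolar RNAs, had 29.0, 36.6 and 10.8 normalized counts in *6KO1* and 0 to 2.13 in WT. That was 86 counts against 2, or 39.4-fold (95% counting interval 10.6 to 330). *Mirg*, a microRNA host RNA next to it, had 22 counts in *6KO1* against 1 in WT (20.1-fold, interval 3.26 to 831) and did not pass the filter. The paternally expressed *Rtl1* and the maternally expressed *Meg3* stayed at 3 counts or fewer in each library. Among the 14 other tested genes within 1 Mb, the median change was 0.04 in *6KO1* and -0.23 in *6KO2*.

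**Figure D3:**
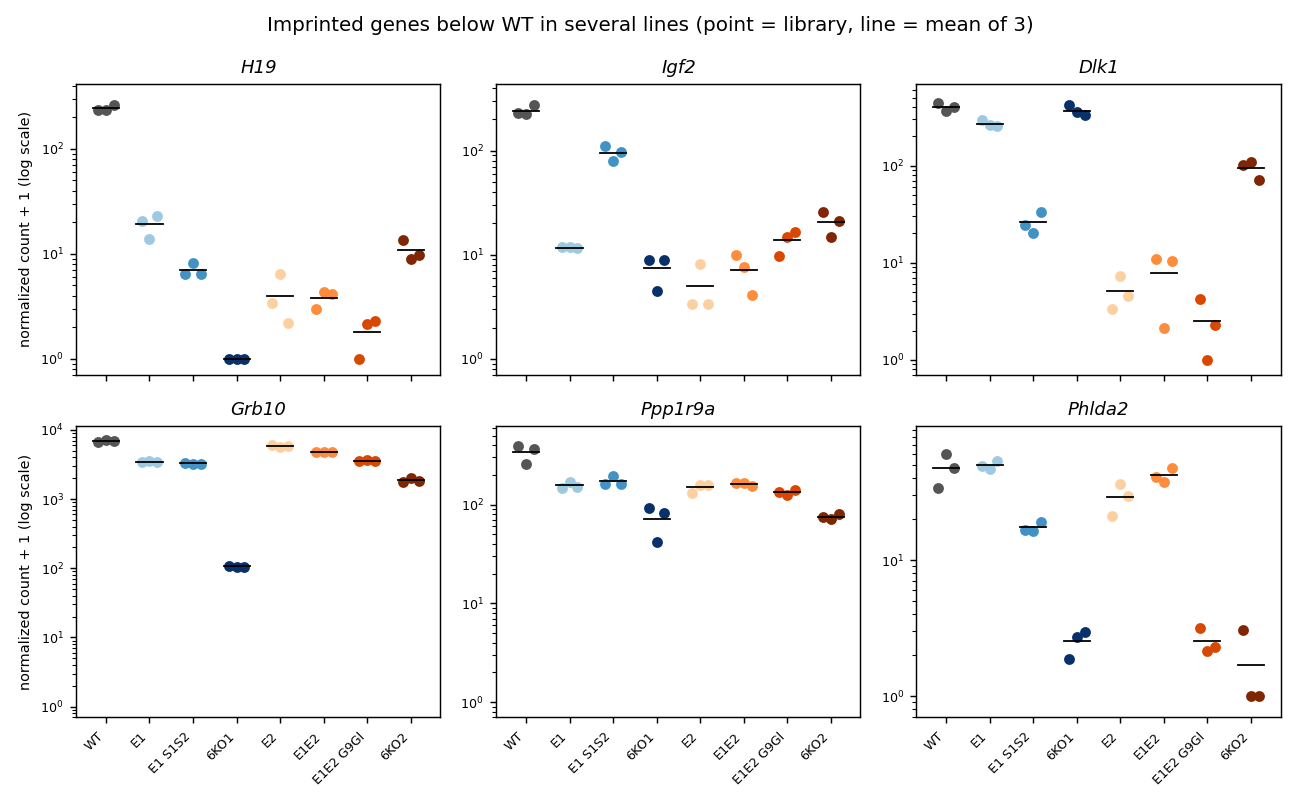
Normalized count plus 1 (log axis) of 6 imprinted genes that fell in 4 or more lines, in each library of the 8 conditions; points are libraries and the line is the mean of 3. *H19* is at 0 counts in all *6KO1* libraries, *Dlk1* in *6KO1* overlaps WT, and *Grb10* is lowest in *6KO1* at 103.6 to 108.1.

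*Grb10* encodes an adaptor that dampens insulin and IGF receptor signalling, on chromosome 11 (11930508 to 12038683). It had 6733, 7119 and 7016 normalized counts in WT and 108.1, 103.6 and 104.6 in *6KO1*. That fall of 6.04 ± 0.064 on the log2 scale (adjusted p = 2.9e-26) was the one with the smallest adjusted p among the imprinted genes in the comparisons with WT. The *E1* libraries had 3466, 3519 and 3438 and the *E1 S1S2* libraries 3353, 3246 and 3230, all of them under the WT libraries. The call in *E1* sat at the 2-fold limit, with -1.0 ± 0.048, and -0.98 without WT replicate 2. *E2* had 5976, 5731 and 5835, *E1E2* 4848, 4798 and 4811, *E1E2 G9Gl* 3542, 3667 and 3491, and *6KO2* 1744, 2020 and 1844. The change in *6KO2* was -1.90 ± 0.050, and *6KO1* was lower than *6KO2* by -4.15 ± 0.062. Only 4 other tested genes lie within 1 Mb, with a median of -0.32 in *6KO1* and 3.17 in *6KO2*, where 2 were higher.

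*Plagl1* encodes a zinc finger transcription factor that restrains growth, on chromosome 10 (13060504 to 13131694), and moved in both directions. The WT libraries had 71.4, 53.9 and 72.3 normalized counts, *E1* had 147.5, 168.8 and 152.1, and *E1 S1S2* had 71.2, 68.8 and 71.0. In *6KO1* it fell to 1.76, 4.35 and 3.91, while in *6KO2* it rose to 152.0, 139.5 and 173.4. The *E1* and *6KO2* libraries lay above and the *6KO1* libraries below all WT libraries, with changes of 1.25 ± 0.15, 1.24 ± 0.15 and -4.25 ± 0.27. Between the lines with 6 mutations the difference was -5.49 ± 0.24 (adjusted p = 8.0e-15). *E2* had 23.8, 21.5 and 40.4, a change of -1.22 ± 0.19, *E1E2* had 68.0, 65.3 and 67.2, and *E1E2 G9Gl* had 85.2, 89.0 and 94.5. In *6KO1* the 11 other tested genes within 1 Mb had a median of -0.93, with 5 lower and 0 higher, and the median of chromosome 10 was -0.495 over 782 genes. The part of this wider shift in the fall of *Plagl1* was not tested.

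The *Snrpn*-Ube3a domain on chromosome 7 (59228750 to 62381640) is the mouse counterpart of the Prader-Willi and Angelman region. *Ndn*, which encodes the growth suppressor necdin, had 0 to 1.11 normalized counts in every library of WT, *E1*, *E1 S1S2*, *6KO1*, *E2* and *E1E2*. The *E1E2 G9Gl* libraries had 490.8, 493.7 and 534.9, and the *6KO2* libraries 672.3, 657.3 and 652.8. Against WT these were 1295 and 1816 counts beside 2, or 765-fold (95% counting interval 211 to 6325) and 1002-fold (277 to 8277). *6KO1*, with 0 counts, was at least 729-fold under *6KO2*. *Ndn* was thus high in the last 2 lines of the second series, and the lines with the same 6 genes disrupted stood at opposite ends.

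*Snrpn*, a spliceosomal protein gene at the control region, also rose mainly in the second series. It had 40.5, 56.6 and 39.1 normalized counts in WT, 49.8, 34.6 and 42.2 in *E1*, and 44.8, 51.4 and 58.7 in *6KO1*. The *E1 S1S2* libraries had 45.4, 38.9 and 38.7, which overlapped WT. *E2* had 145.1, 172.2 and 150.9, *E1E2* had 72.9, 64.2 and 79.6, *E1E2 G9Gl* had 153.2, 142.2 and 138.6, and *6KO2* had 158.2, 186.3 and 132.6. All libraries of these 4 conditions lay above WT, with changes of 1.77 ± 0.16 in *E2*, 1.66 ± 0.16 in *E1E2 G9Gl* and 1.8 ± 0.16 in *6KO2*. The 4-OHT treated *E1E2* cells had less than *E2* (-1.11 ± 0.15, adjusted p = 1.0e-05). The same-strand models *Gm38393* and *Snurf* share 27.3% and 10% of the *Snrpn* exon bases.

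The ubiquitin ligase gene *Ube3a*, listed as maternally expressed, stayed under the 2-fold minimum in all lines, with its lowest change of -0.76 ± 0.061 in *E1E2 G9Gl*. The other tested genes within 1 Mb of the domain, 20 in number, had a median of 1.15 in *E1E2 G9Gl* (10 higher, 1 lower), 0.93 in *6KO2* (9 higher, 0 lower) and 0.68 in *6KO1* (8 higher, 1 lower). In *6KO1*, where these neighbours were also higher, *Ndn* had 0 counts. Beside these rises, the trophoblast marker list had a summed level of 1164 to 1234 in *E1E2 G9Gl*, 92.6 to 121.5 in *6KO2* and 0 to 0.913 in WT, all but a trace of it *Prl3d1*, a placental lactogen gene. *Cdx2* and *Elf5*, transcription factors that define trophoblast, had 0 counts in every library. The neuronal marker *Snap25*, at 0 in WT, had a mean of 58.3 in *E1E2 G9Gl* and 10.1 in *6KO2*, and *Tubb3* had 1575 and 3351 against 726.1 in WT, while *Rbfox3* was at 0 and 0.345. *Cdh5*, *Ptprc* and *Myod1* were also higher in these 2 lines, with 34.7, 47.7 and 9.08 in *E1E2 G9Gl*, 46.7, 18.8 and 5.83 in *6KO2*, and 1.37, 0 and 0 in WT. Most of these markers were not particular to the lines with high *Ndn*. *6KO1* had means of 63.1 for *Cdh5*, 15.7 for *Ptprc*, 17.2 for *Prl3d1* and 3.92 for *Snap25*, with *Myod1* at 0 and *Tubb3* at 535.6. *Tubb3* had 1679 in *E1* and 3161 in *E1E2*, where *Ndn* did not rise. The part of these markers in the rise of *Ndn* was not tested.

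*Peg3* encodes a zinc finger protein and is expressed from the paternal copy, in a domain on chromosome 7 (6671269 to 6967219). It had 1.07, 0 and 1.00 normalized counts in WT, 93.2, 94.9 and 97.8 in *6KO1*, and 41.4, 46.9 and 37.6 in *6KO2*. This was 315 and 115 counts against 2, or 144-fold (95% counting interval 39.6 to 1196) and 63.4-fold (17.2 to 530), and it rose in both lines with 6 mutations. The libraries of the lines that preceded them were low: *E1 S1S2* had 1.57, 2.72 and 3.60 and *E1E2 G9Gl* had 2.16, 0 and 2.59. *E2* had 0, 0.897 and 1.19, and *E1E2* had 3.94, 2.21 and 3.10. *E1* had 6.84, 4.93 and 5.28, or 18 counts against 2, 8.59-fold (2.06 to 76.4), and the call was lost without WT replicate 2 (adjusted p = 0.026 in place of 0.00198). In *6KO1* the 17 other tested genes within 1 Mb had a median of 1.02, with 9 higher, and in *6KO2* 0.13, with 2 higher. Its partners *Usp29* and *Zim1*, a ubiquitin protease and a zinc finger gene, had at most 8 counts each over all libraries.

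**Figure D4:**
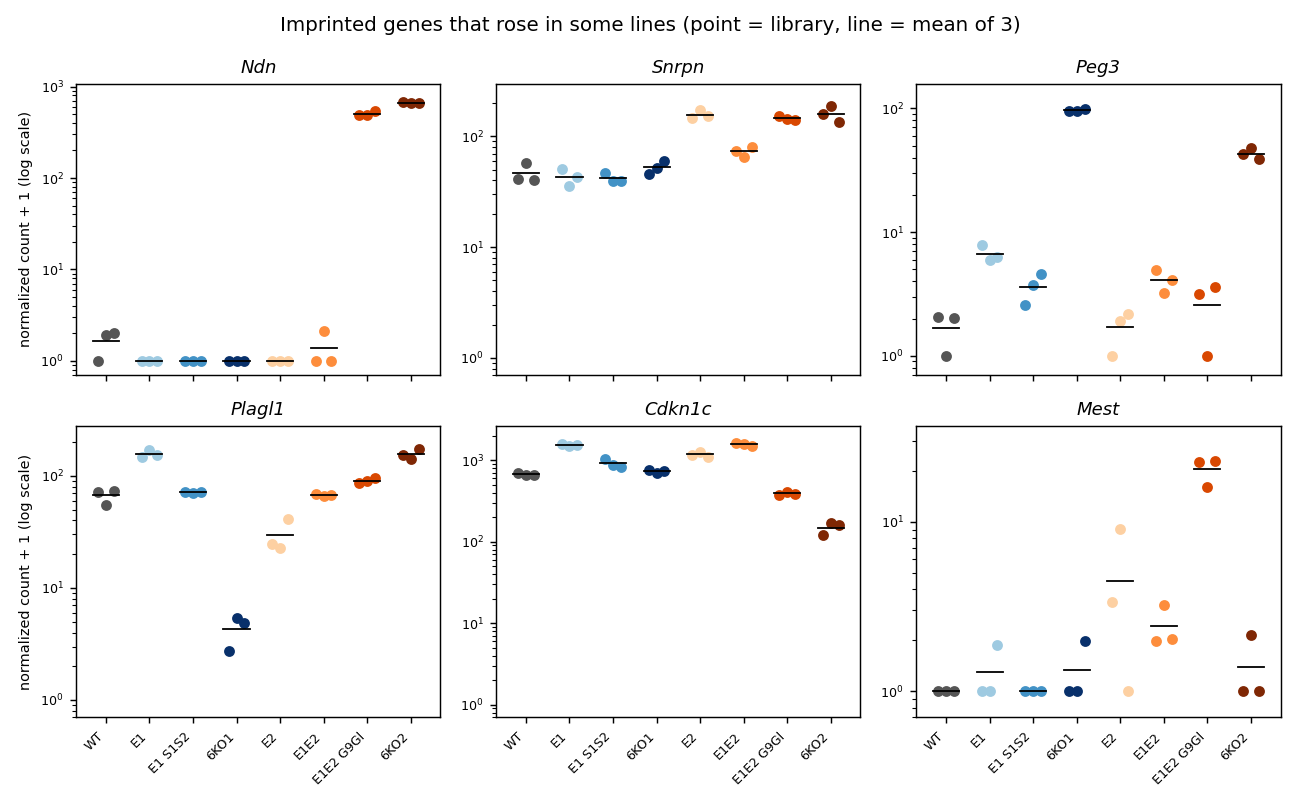
Normalized count plus 1 (log axis) of 6 imprinted genes that rose in at least 1 line, in each library of the 8 conditions; points are libraries and the line is the mean of 3. *Ndn* is at 490.8 or more in *E1E2 G9Gl* and *6KO2* and at 1.11 or less elsewhere, *Peg3* is highest in *6KO1* and *6KO2*, and *Mest* has 15.0 to 22.0 in *E1E2 G9Gl*.

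*Mest*, an alpha/beta hydrolase family gene expressed from the paternal copy, had 0 counts in WT. It had 21.6, 15.0 and 22.0 normalized counts in *E1E2 G9Gl*, at least 19.7-fold over WT, but only 0, 1.14 and 0 in *6KO2*, 53.6-fold lower than in *E1E2 G9Gl* (95% counting interval 9.18 to 2158). *E2* had 2.38, 8.07 and 0, which did not pass the test (adjusted p = 0.0113), and *E1* and *6KO1* had at most 0.978. *Mest* and *Copg2*, a coatomer gene listed as maternally expressed, overlap tail to tail on opposite strands. The strand setting of the counting is not given in the sources used here. *Copg2* passed the test in none of the lines, with changes between -0.53 and 0.41.

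Where a control region coincides with a promoter, its sequence is of interest, since ZFP57 is known to bind the 6 bases TGCCGC when methylated. The 300 bases from 250 before to 50 after the annotated start, in RefSeq for GRCm38.p6, were searched on both strands (TGCCGC and its reverse GCGGCA). The motif stood in 11.6% of 32851 mouse promoter windows and in 12 of the 53 windows (22.6%) found for 34 of the imprinted genes, which had a median of 15 CG pairs against 7 over all windows. The windows of 5 genes with large changes are shown because they cover genes with and without a match: *Mest* (chr6:30737800-30738099, plus strand, 2 matches), *Plagl1* (chr10:13090582-13090881, plus strand, 1 match), *Grb10* (chr11:12037371-12037670, minus strand, 1 match), and *Peg3* (chr7:6730370-6730669, minus strand) and *Ndn* (chr7:62348027-62348326, plus strand), which had 0. Capitals mark the matches.
Mest: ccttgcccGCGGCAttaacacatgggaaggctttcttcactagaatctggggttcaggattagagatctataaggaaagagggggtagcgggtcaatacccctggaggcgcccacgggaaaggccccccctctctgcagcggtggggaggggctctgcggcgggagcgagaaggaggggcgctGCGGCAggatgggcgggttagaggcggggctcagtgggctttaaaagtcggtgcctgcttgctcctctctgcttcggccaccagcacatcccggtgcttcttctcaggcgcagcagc
Plagl1: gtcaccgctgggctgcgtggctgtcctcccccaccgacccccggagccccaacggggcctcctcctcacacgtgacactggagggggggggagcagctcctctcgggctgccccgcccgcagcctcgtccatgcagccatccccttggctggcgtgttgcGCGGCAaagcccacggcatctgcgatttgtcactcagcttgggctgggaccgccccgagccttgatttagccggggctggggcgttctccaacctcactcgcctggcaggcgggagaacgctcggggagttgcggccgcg
Grb10: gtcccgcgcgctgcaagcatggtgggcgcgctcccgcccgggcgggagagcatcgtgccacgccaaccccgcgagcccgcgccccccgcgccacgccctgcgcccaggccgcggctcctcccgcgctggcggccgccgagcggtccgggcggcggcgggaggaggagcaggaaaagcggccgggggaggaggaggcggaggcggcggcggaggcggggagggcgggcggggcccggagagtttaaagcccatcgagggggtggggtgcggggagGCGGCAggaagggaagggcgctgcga
Peg3: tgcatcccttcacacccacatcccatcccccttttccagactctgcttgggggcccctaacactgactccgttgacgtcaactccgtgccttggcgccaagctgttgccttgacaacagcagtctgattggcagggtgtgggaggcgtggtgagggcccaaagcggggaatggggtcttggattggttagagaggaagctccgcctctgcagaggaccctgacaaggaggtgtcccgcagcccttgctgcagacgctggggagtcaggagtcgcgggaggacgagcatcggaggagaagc
Ndn: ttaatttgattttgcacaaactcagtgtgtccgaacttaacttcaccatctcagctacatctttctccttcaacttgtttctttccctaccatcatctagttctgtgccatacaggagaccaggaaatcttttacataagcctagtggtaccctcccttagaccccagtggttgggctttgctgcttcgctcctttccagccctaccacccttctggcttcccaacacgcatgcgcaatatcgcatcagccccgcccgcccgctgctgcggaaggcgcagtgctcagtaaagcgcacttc
A match is a string of letters and not a bound site, and its absence covers this window only. Another *Mest* window (chr6:30737803-30738102) overlaps the one shown and holds the same 2 matches, so these are counted in 2 of the 12 windows. Further windows of *Grb10* (chr11:12027922-12028221) and *Mest* (chr6:30733256-30733555) had 0 matches. Whether any window lies in a control region was not tested. Among the 5 genes shown, *Mest* rose in 1 line, *Plagl1* rose in 2 lines and fell in 2, and *Grb10* fell in 4, and the genes without a match, *Peg3* and *Ndn*, rose. These genes do not stand for the list: *Phlda2*, *Ppp1r9a* and *Dlk1* also had 0 matches and fell. *Igf2* and *Snrpn* each had a window with a match, and *Igf2* fell while *Snrpn* rose. Whether a match goes with a direction of change was not tested. The RNA of *Zfp57* itself fell in *6KO1* by 1.26 ± 0.058 on the log2 scale and did not pass the test in the other 6 lines, with 0.16 in *E1E2 G9Gl*, -0.29 in *6KO2* and values from -0.63 to 0.01 in the rest.

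The *Kcnq1ot1* domain on chromosome 7 (142966829 to 143756985) has 9 members, of which 7 were tested. Its paternally expressed non-coding RNA *Kcnq1ot1* silences neighbours in cis, and its level stayed under the 2-fold minimum in all lines, with the lowest change of -0.79 ± 0.096 in *6KO2*. *Phlda2*, a brake on placental growth, fell in 4 lines. It had 33.03, 59.35 and 46.17 normalized counts in WT, 47.9, 45.4 and 52.8 in *E1*, and 15.66, 15.4 and 17.99 in *E1 S1S2*. The *6KO1* libraries had 0.879, 1.74 and 1.96, those of *E1E2 G9Gl* 2.16, 1.16 and 1.29, and those of *6KO2* 2.07, 0 and 0. These 4 conditions lay under all WT libraries, whereas *E2* (20.2, 35.0 and 28.5) and *E1E2* (39.4, 36.5 and 46.5) overlapped WT. The change was -4.83 ± 0.38 in *6KO1*, and *6KO2* had 2 counts against 142 in WT (64.4-fold lower, 95% counting interval 17.5 to 537).

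*Cdkn1c*, whose product p57 inhibits cyclin-dependent kinases, rose in *E1* and *E1E2* and fell in *6KO2*. The WT libraries had 694.8, 662.9 and 661.4 normalized counts, *E1* had 1580, 1473 and 1540, and *E1E2* had 1638, 1581 and 1493. *E1 S1S2* had 1022, 880.3 and 826.5, and *E2* had 1167, 1270 and 1100, all above WT but under the 2-fold minimum. In *6KO1* it had 747.3, 702.4 and 727.6, just above WT. *E1E2 G9Gl* had 375.4, 410.5 and 383.4 and *6KO2* had 117.9, 166.9 and 158.0, both below WT. The changes were 1.19 ± 0.084 in *E1*, 1.22 ± 0.084 in *E1E2* and -2.19 ± 0.099 in *6KO2*, and *6KO1* lay above *6KO2* by 2.30 ± 0.099. The antisense model *Gm44732* covers 30.7% of its exon bases.

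The other members of the domain moved less. *Osbpl5*, an oxysterol-binding protein gene, had all libraries above WT in each of the 7 lines and passed the test in *6KO1* (1.30 ± 0.080). *Nap1l4*, *Tssc4* and *Cd81*, a histone chaperone gene, a small nuclear ribonucleoprotein assembly gene and the tetraspanin gene, passed it in none, with changes between -0.55 and 0.12.

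The *Peg10*-Sgce domain on chromosome 6 (4674350 to 5165661) contained members that moved in opposite directions. *Ppp1r9a*, an actin-binding protein gene expressed from the maternal copy, fell in 6 lines and lay below WT in all 7. It had 390.0, 257.5 and 363.3 normalized counts in WT, 90.6, 40.9 and 81.2 in *6KO1*, and 73.4, 70.9 and 79.5 in *6KO2*. The other lines were intermediate: *E1* had 147.5, 167.8 and 150.4, *E2* had 130.9, 156.9 and 156.8, and *E1E2* had 162.6, 165.0 and 153.0. *E1 S1S2* had 160.5, 192.9 and 161.9 and *E1E2 G9Gl* had 133.8, 124.9 and 139.9. The changes were -2.25 ± 0.18 in *6KO1* and -2.17 ± 0.18 in *6KO2*, and *E1 S1S2* (-0.97) passed only without WT replicate 2 (-1.13).

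*Peg10* and *Sgce* are paternally expressed and start next to each other on opposite strands. *Peg10* had 3716, 2732 and 3709 normalized counts in WT, with only 654.8, 663.7 and 713.7 for *E1E2 G9Gl*, and 1441, 1277 and 1398 for *6KO2*. It had 1678, 1722 and 1642 in *E1 S1S2*, and 4552, 3976 and 4062 in *6KO1*, which lay above WT. *E1* had 3121, 3023 and 2744, *E2* 2234, 2010 and 2329, and *E1E2* 2557, 2572 and 2493. The fall was -2.32 ± 0.096 in *E1E2 G9Gl* and -1.30 ± 0.091 in *6KO2*. *Sgce*, the epsilon-sarcoglycan gene, rose in *E1E2 G9Gl* (1.5 ± 0.082) and *6KO1* (1.20 ± 0.082). In *E1E2 G9Gl*, the neighbouring genes thus moved apart, *Peg10* down and *Sgce* up.

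**Figure D5:**
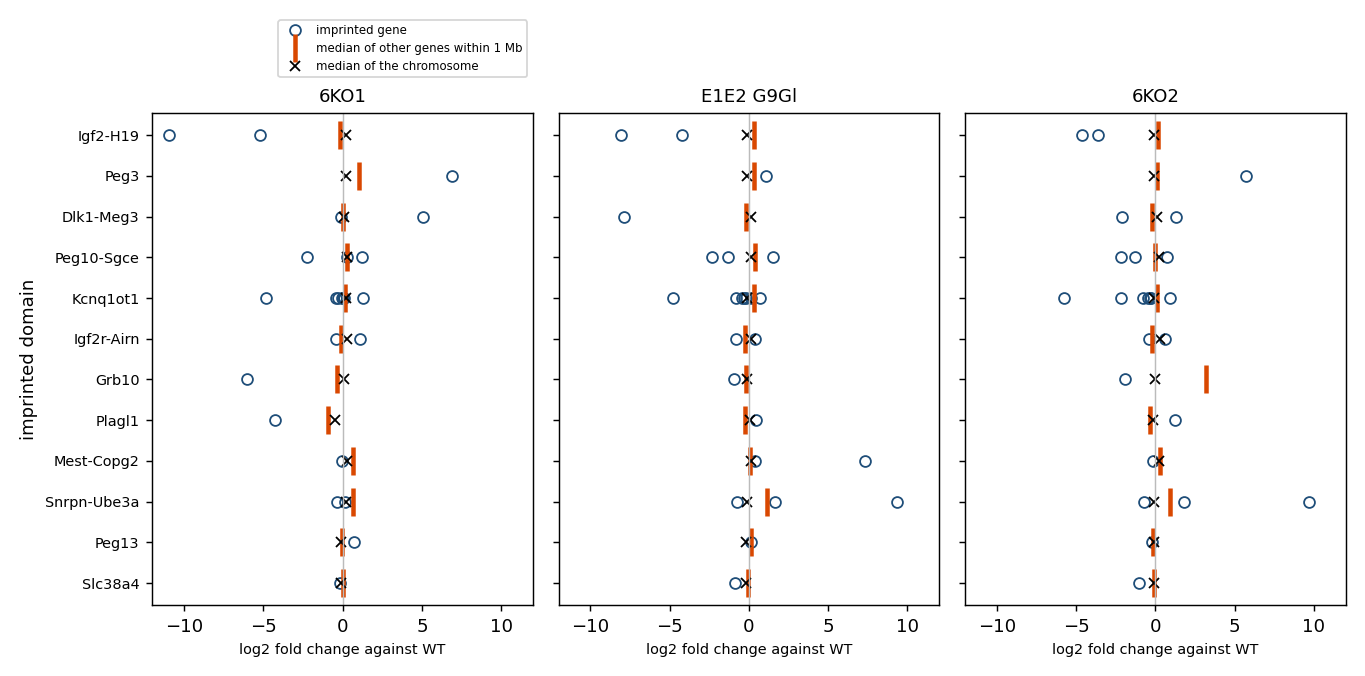
Log2 fold change against WT of tested imprinted genes (circles) in 12 domains, with the median of the other tested genes within 1 Mb (orange bars) and of the chromosome (crosses), in *6KO1*, *E1E2 G9Gl* and *6KO2*; genes with 3 counts or fewer in both groups are left out. *H19*, *Igf2* and *Ndn* lie far from their neighbours, and in *6KO1* the neighbours of *Plagl1* had a median of -0.93.

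Of the remaining genes, few passed the test. The amino acid transporter gene *Slc38a4* fell in *E1 S1S2* and *6KO2* by 1.02 and 1.03 on the log2 scale, and by 0.83 and 0.84 without WT replicate 2, under the 2-fold minimum. The non-coding RNA *Peg13* fell in *E1E2* (-1.02 ± 0.16). Altogether 14 genes passed in no line: besides those already named they include the *Igf2r* antisense RNA *Airn*, the G protein alpha subunit gene *Gnas* (changes between -0.19 and 0.17), *Impact*, *Blcap*, *Zrsr1*, *Commd1*, *H13* and *Inpp5f*. *Airn* had its lowest change, -0.83, in *E1E2 G9Gl*, where *Igf2r* changed by 0.38 ± 0.088.

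The steps within each series show which additional mutations the changes came with. *Peg3*, *Rian*, *Ndn* and *Mest* passed the filter only through the conditions where they are high. The counts of the steps where they change, and those between the lines with 6 mutations, therefore include calls that were bound to occur. From *E1* to *E1 S1S2*, 1 of the 33 tested genes rose (*Igf2*) and 4 fell (*Dlk1*, *H19*, *Phlda2* and *Plagl1*), beside 4.31% and 3.74% of all tested genes. From *E1 S1S2* to *6KO1*, 6 rose and 6 fell, beside 16.3% and 5.02%. Those that rose were *Peg3*, *Rian*, *Dlk1*, *Peg13*, *Peg10* and *Sgce*, and those that fell were *H19*, *Grb10*, *Plagl1*, *Igf2*, *Phlda2* and *Ppp1r9a*. In this step *Grb10* changed by -4.96 ± 0.062 and *Plagl1* by -4.35 ± 0.27.

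In the second series, 1 gene was higher (*Plagl1*) and 1 lower (*Snrpn*) after 4-OHT in the *Eset2* clone (*E1E2* against *E2*), beside 2.32% and 0.657%. From *E1E2* to *E1E2 G9Gl*, 5 rose (*Ndn*, *Mest*, *Peg13*, *Sgce* and *Snrpn*) and 3 fell (*Phlda2*, *Cdkn1c* and *Peg10*), beside 14.8% and 6.78%. *Phlda2* fell by 4.60 ± 0.43 and *Cdkn1c* by 2.01 ± 0.089 in this step. From *E1E2 G9Gl* to *6KO2*, 4 rose (*Dlk1*, *Peg3*, *H19* and *Peg10*) and 2 fell (*Mest* and *Cdkn1c*), beside 7.19% and 9.12%. *Peg3*, *Dlk1* and *Peg10* thus rose at the last step of both series, which removed different genes: *Eset2*, *G9a* and *Glp* in the first and both *Suv39h* genes in the second. The rise of *Peg10* in the second series sat at the 2-fold limit, and with DESeq2 it was 0.99, just under the minimum.

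*6KO1* and *6KO2* lack the same 6 enzymes but differed in 11 of the 33 tested genes, 5 higher in *6KO1* (*Rian*, *Cdkn1c*, *Dlk1*, *Peg10* and *Peg3*) and 6 lower (*Ndn*, *H19*, *Plagl1*, *Grb10*, *Snrpn* and *Igf2*), beside 9.77% and 7.1% of all tested genes. Against WT, whose libraries both comparisons share, *Grb10* changed by -6.04 in *6KO1* beside -1.90 in *6KO2*, *Igf2* by -5.22 beside -3.61, and *Plagl1* by -4.25 beside 1.24.

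The effect of 4-OHT in the *Eset2* clone was compared with that in the parental line. Of the 33 genes 3 differed, beside 3.43% of all tested genes: *Igf2* (5.01 ± 0.62), *H19* (3.52 ± 0.68) and *Ppp1r9a* (1.22 ± 0.24). The positive sign comes from their fall in the parental line, and none of the 3 passed the test between *E2* and *E1E2*. *Snrpn* fell after 4-OHT in the *Eset2* clone, while in the parental line its *E1* libraries overlapped WT. Its difference sat at the 2-fold limit (-0.998 ± 0.24, adjusted p = 0.00525). It passed without WT replicate 2 (-1.20, adjusted p = 9.6e-04) and with DESeq2 (-1.01, adjusted p = 0.0038). In the parental line *Igf2*, *H19* and *Ppp1r9a* were lower after 4-OHT, whereas in the *E2* clone they were low before 4-OHT was added. *H19* and *Igf2* had 9 and 12 counts over the *E2* libraries, which left little room for a further fall. In both lines 4-OHT also removes *Eset1* exons, and the 2 cannot be told apart.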

How the data were processed

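RNA-seq of 24 MEF cultures was used, 3 biological replicates for each of 8 conditions, grouped by the sample titles and the source labels. The authors trimmed reads (cutadapt 1.8.1), aligned them to GRCm38 (STAR 2.5.2b), counted them on genes and repeats with TEtranscripts, and deposited whole-number counts per gene and repeat without normalization. Of 47937 gene rows, 47224 had a symbol, and 1 malformed row (at most 0.00271% of counts) was left out. Libraries held 24736829 to 37419071 counts.

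Here edgeR 4.0.16 (filterByExpr by condition, TMM factors from genes, quasi-likelihood test, 1 coefficient per condition, two-sided) was fitted over 18565 genes, with Benjamini-Hochberg adjustment over all of them; every adjusted p in the text comes from it. A call needed an adjusted p of at most 0.01 and a log2 fold change of at least 1 in size. Normalized counts are TMM-scaled counts at the mean effective library size. The fold for a gene with 3 counts or fewer over a condition uses those counts, with an exact 95% interval, or for 0 counts the limit of 3. The edgeR steps were tested on simulated data. Alternatives were DESeq2 1.42.0, other factors, filters and libraries.

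Members and lists were chosen with earlier results of these data known. All members may be named, with the value of each library for those called in at least 3 of 7 lines; of other lists, genes called in the same direction in *6KO1* and *6KO2* were named, at most 6 per list by the size of the mean log2 fold change. Promoter windows are RefSeq for GRCm38.p6; coordinates and overlaps are from the GENCODE annotation of GRCm38. Figures were drawn with matplotlib 3.10.9.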

Additional observations from a re-analysis of the deposited data

Results flagged for a closer look

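The effect of 4-OHT differed between the *Eset2* clone and the parental line, by a test of the difference itself, in 3 imprinted genes. The difference on the log2 scale was 5.01 for *Igf2* (adjusted p = 3.7e-06), 3.52 for *H19* (adjusted p = 9.9e-04) and 1.22 for *Ppp1r9a* (adjusted p = 0.00104). Before 4-OHT, *H19* and *Igf2* had only 9 and 12 counts over the *E2* libraries, against 734 and 728 in WT. With little room left to fall, these 2 genes cannot show whether the response to 4-OHT itself differed. *Snrpn* differed in the other direction, by -0.998 (adjusted p = 0.00525), just under the 2-fold minimum, and by -1.20 without WT replicate 2 (adjusted p = 9.6e-04) and -1.01 with DESeq2 (adjusted p = 0.0038), both past it.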

How the results depend on the processing

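Of 107 calls of an imprinted gene in a comparison, none reversed under the alternatives run (1349 values), 1308 values kept the call and 41 lost it, 22 of these with a library left out, for 13 calls in all. Most of these sat near the 2-fold limit: *Grb10* in *E1*, *Peg10* in *E1 S1S2* (-0.94 without WT replicate 1 or 3, -0.99 without *E1 S1S2* replicate 3) and from *E1E2 G9Gl* to *6KO2* (0.99 without *E1E2 G9Gl* replicate 1 or 2, 0.98 without *6KO2* replicate 1), *Sgce* from *E1 S1S2* to *6KO1* (0.99 and 0.98 without *6KO1* replicate 2 or 3), *Ppp1r9a* in *E1* (-1.0) and *E1E2* (-0.95) without WT replicate 1, *Snrpn* from *E1E2* to *E1E2 G9Gl* (0.92 without *E1E2* replicate 2, 0.96 without *E1E2 G9Gl* replicate 1) and *Peg13* in *E1E2* (-1.0 without *E1E2* replicate 2). *Grb10* in *E1* was also lost without WT replicate 3 (-0.99) and *E1* replicate 1 (-1.0) or 3 (-0.99). *Peg3* in *E1* lost its call without *E1* replicate 1 (adjusted p = 0.0127) and with DESeq2 (adjusted p = 0.0277), and *Plagl1* in *E2* with the compared libraries alone (adjusted p = 0.0185).

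With the test limited to genes above a mean of 100 normalized counts (25 of the imprinted genes), called genes numbered 2 (*E1*), 3 (*E1 S1S2*), 5 (*6KO1*), 2 for *E2*, then 5 for *E1E2 G9Gl* with 6 for *6KO2*. They numbered 1 from *E1* to *E1 S1S2*, 6 from there to *6KO1*, 0 from *E2* to *E1E2* (edgeR, with 10 at an unadjusted p under 0.05 and 2 by DESeq2 without this filter), 5 from *E1E2* to *E1E2 G9Gl*, 3 from there to *6KO2*, 5 between the lines with 6 mutations and 1 for the difference in 4-OHT effects; this filter removes low genes. Of the 11763 genes tested with it, the shares called were 2.94%, 8.22%, 19.4%, 3.83%, 16.5% and 11.5% for these lines and 5.4%, 10.8%, 1.94%, 13.4%, 8.77%, 8.89% and 2.89% for these steps, in the order given. For *E1E2*, 1 imprinted gene was called higher and 3 lower with this filter, beside 5.81% of the genes tested with it. Without the fold minimum the called imprinted genes numbered 12 for *E1* with 17 for *E1 S1S2* and 21 for *6KO1*, then 17 for *E2* with 21 for *E1E2*, 24 for *E1E2 G9Gl* and 24 for *6KO2*, and for the other comparisons in the same order 18, 21, 9, 17, 17, 24 and 7. The shares of all tested genes were then 13.3%, 41.8%, 66.3%, 26.9%, 33.1%, 59.1% and 54.5% for the lines and 33.5%, 53.4%, 11.9%, 53.4%, 43.6%, 49.2% and 8.88% for the other comparisons.

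Same-numbered libraries of different conditions did not deviate together (84 pairs, correlation -0.291 to 0.24, median 0.003, 6 over 0.1). The replicate block left 11 calls in *6KO1* and 13 in *6KO2*, and moved the step from *E1E2* to *E1E2 G9Gl* from 8 to 7 calls (*Snrpn*, 1.00). Depth limits the genes near 0 counts, for which folds carry wide counting intervals, and 3 libraries of 1 clone per condition give no spread between clones.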

Other observations

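Other imprinted genes, from a list of 44 of which 24 were tested, moved in both lines with 6 mutations: 9 rose and 5 fell in *6KO1*, beside 20.6% and 10.2% of all tested genes, and 7 rose and 2 fell in *6KO2*, beside 15.3% and 5.39%. *Tnfrsf22* and *Tnfrsf23*, decoy receptors for TRAIL that lie in the region of the *Kcnq1ot1* domain, rose in all 7 lines, by 4.21 ± 0.086 and 4.35 ± 0.11 on the log2 scale in *6KO1* and by 3.03 ± 0.087 and 3.58 ± 0.11 in *6KO2*. Their neighbour *Tnfrsf26* had 180 counts in *6KO1* and 23 in *6KO2* against 2 in WT (82.4-fold, 95% counting interval 22.5 to 686, and 12.7-fold, 3.13 to 111). *Ampd3*, an AMP deaminase gene, rose by 3.81 ± 0.22 and 2.54 ± 0.22. *Asb4*, an ankyrin repeat gene near *Peg10*, rose from a WT mean of 1.55 normalized counts by 5.35 ± 0.46 and 5.22 ± 0.47. *Cpa4*, a carboxypeptidase gene near *Mest*, fell in all 7 lines, to 1 count in *6KO1* against 162 in WT (177-fold, interval 31.3 to 7030), and in *6KO2* it fell by 4.33 ± 0.41 on the log2 scale.

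Of 18 tested factors that maintain or remove DNA methylation at imprints, 0 rose and 3 fell in *6KO1* (1 and 10 at an unadjusted p under 0.05 in edgeR, and also 0 rose by DESeq2), and 0 rose and 1 fell in *6KO2* (1 and 11; 0 by DESeq2). Over all tested genes 20.6% rose and 10.2% fell in *6KO1*, and 15.3% and 5.39% in *6KO2*, which are also the background of the lists that follow. *Tet1*, a dioxygenase that oxidizes 5-methylcytosine, fell in both, by 4.42 ± 0.17 and 2.87 ± 0.15. Of 13 Polycomb and related genes, 2 rose and 1 fell in *6KO1*, and 0 rose (4 at an unadjusted p under 0.05; 0 by DESeq2) and 1 fell in *6KO2*, with no gene in common. Of 10 tested genes of the insulin-like growth factor axis, 0 rose (3 at an unadjusted p under 0.05; 0 by DESeq2) and 3 fell in *6KO1*, and 0 rose (3; 0 by DESeq2) and 1 fell in *6KO2*. Those that fell were *Igf1* (-2.95 ± 0.21), *Igfbp4* (-4.34 ± 0.11) and *Igf2bp2* (-1.10 ± 0.065) in *6KO1* and *Igfbp6* (-1.12 ± 0.11) in *6KO2*, named after their values were seen. The list comparisons share the WT libraries.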
